A study of Homo sapiens with 6 samples.

Results

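The proteasome subunit genes were taken as every gene of the deposited signal table whose symbol is PSMA, PSMB, PSMC, PSMD, PSME, PSMF or PSMG followed by a number and nothing else, which gave 48 of 54308 listed genes. They comprise the core alpha and beta subunits, the immunoproteasome subunits, the ATPase and non-ATPase subunits of the regulatory particle, the activators, an inhibitor and the assembly chaperones. Their RNA was measured by bulk RNA sequencing in 143B cells, a human osteosarcoma line, to ask what changes when CNTNAP4, a cell surface receptor of the neurexin family, is deleted by CRISPR/Cas9. There were 3 libraries of cells that received the vector plasmid (VC) and 3 of CNTNAP4 knockout cells (KO). The labels give 48 h of transfection for both groups, and the study's methods describe clonal cells grown from sorted single cells. How many clones gave the 6 RNA samples is not given in the sources used here, so the deletion and the choice of clone cannot be told apart, and p-values measure the spread between these samples. The values are log2 signals that had been brought to a common distribution, and the read depth and the linear unit are unknown, so no counting interval is given and levels are not compared between genes, apart from differences within a library whose change is described.

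The proteasome is the main protease of the cytosol and nucleus. Its core particle stacks rings of alpha subunits, which form a gate, on rings of beta subunits, which hold the proteolytic sites. A regulatory particle of ATPases and ubiquitin receptors feeds it ubiquitin-tagged proteins, while activator rings open the gate without ubiquitin. Cells that lack proteasome capacity raise the subunit genes together through the transcription factor NFE2L1, and the related factor NFE2L2 acts on some of the same genes under oxidative stress. Interferon exchanges the proteolytic subunits for immunoproteasome subunits, which favour peptides for antigen presentation.

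The targeted gene, CNTNAP4, was listed with a signal in just 1 of the 6 libraries, VC replicate 3 (-7.18), so its signal could not check the labels. All 7 markers of the osteoblast lineage and of mesenchymal cells had values in the 6 libraries. Values ran from 10.33 to 10.93 for vimentin, from 6.46 to 6.95 for SPARC and from 4.04 to 4.45 for CDH11. The collagen gene COL1A1 had 2.28 to 2.73 and RUNX2 1.30 to 1.69. Low values were those of ALPL, at -1.34 to -0.49, and of the collagen gene COL1A2, at -5.72 to -4.59. Of 9 markers of epithelial, leukocyte and endothelial cells, 7 had values of at most -2.39 or none. The exceptions were EPCAM, at 0.84 to 1.79, and the macrophage-associated CD68, at 4.43 to 6.46. EPCAM was lower and CD68 higher in every KO library than in any VC library, and their part in the results on subunits was not tested. In bulk RNA, fewer cells of a type and less RNA per cell cannot be told apart.

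Of the 48 subunit genes, 46 had a value in all 6 libraries and were tested. All of these lay in the upper 50% of mean signals. PSMA8, a testis alpha subunit, had no value in any library. PSMB11, the thymus beta subunit, had values in VC replicate 3 and KO replicate 3 alone (-6.74 and -6.71) and was not tested.

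The subunit genes did not move as a block. In KO, 9 of the 46 fell and 0 rose at an adjusted p under 0.05 (limma with Benjamini-Hochberg adjustment over 19306 genes). Those that fell were the alpha subunits PSMA3, PSMA4, PSMA6 and PSMA7, the catalytic beta subunit PSMB5, the ATPase PSMC1, the activators PSME2 and PSME3 and the assembly chaperone PSMG3. Their falls ran from 0.26 to 0.73 on the log2 scale, and no subunit changed by 2-fold. Among all genes tested, 19.8% fell and 13.1% rose, 32.9% in either direction. Among the 9653 genes in the upper 50% of mean signal, 22.5% fell and 16.7% rose, 39.2% in either direction. In this fit the share of subunits that fell, 19.6%, was thus near the background, and the share that rose was below it. Other fits, given below, called other numbers. Without adjustment, 17 subunits had a p under 0.05, 14 of them lower and 3 higher (PSMB4, PSMB10 and PSMD4). The same held for 47.9% of all genes tested (30.0% lower and 17.8% higher) and for 56.8% of the upper 50% (34.2% lower and 22.5% higher), both above the share of the subunits.

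The size of the differences was also small beside that of other genes. The log2 fold change of KO over VC (log2FC) had a median of -0.067 over the 46 subunits, -0.13 over all genes tested and -0.087 over the upper 50%, and the subunit median changed sign, to 0.020, when each library was centred on its median over the genes tested. That centring moved the median of all genes to -0.038, and with it the calls were 5 lower (PSMA3, PSMA7, PSMC1, PSME2 and PSMG3) and 5 higher (PSMB3, PSMB4, PSMB10, PSMD4 and PSMD14), where 15.9% of all genes fell and 16.3% rose (32.2% in all). The median absolute log2FC was 0.15 for the subunits, 0.28 for the upper 50% and 0.39 for all genes. Of the 46 subunits, 10 had every KO value above every VC value and 18 had every KO value below, while 18 overlapped. The background for genes with 6 values was 22.6% above and 36.7% below (59.3% either way), and in the upper 50% it was 28.5% and 41.8% (70.3%). Neither share of subunits exceeded that of the upper 50%.

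The calls depended on single libraries. Without VC replicate 1, without VC replicate 3 or without KO replicate 3 limma called 0 subunits, although 9, 10 and 10 had an unadjusted p under 0.05. Of all genes, 7.54%, 6.57% and 10.9% passed in these fits. Without VC replicate 2 it called PSMA7 alone (13.1% of all genes passed), without KO replicate 2 it called 5 subunits (23.6%), and without KO replicate 1 it called 15 (47.0%). The way the test was set also mattered. A fit of the upper 50% alone called 18 subunits, 3 higher and 15 lower, where 23.4% of its genes rose and 35.6% fell. Moderation with trend and robust estimation called 18 as well, where 15.5% of genes rose and 25.5% fell (41.0% in all). With 1 added to the linear signal 22 passed, 6 higher and 16 lower, where 15.5% of genes rose and 24.8% fell (40.3% in all).

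**Figure D1:**
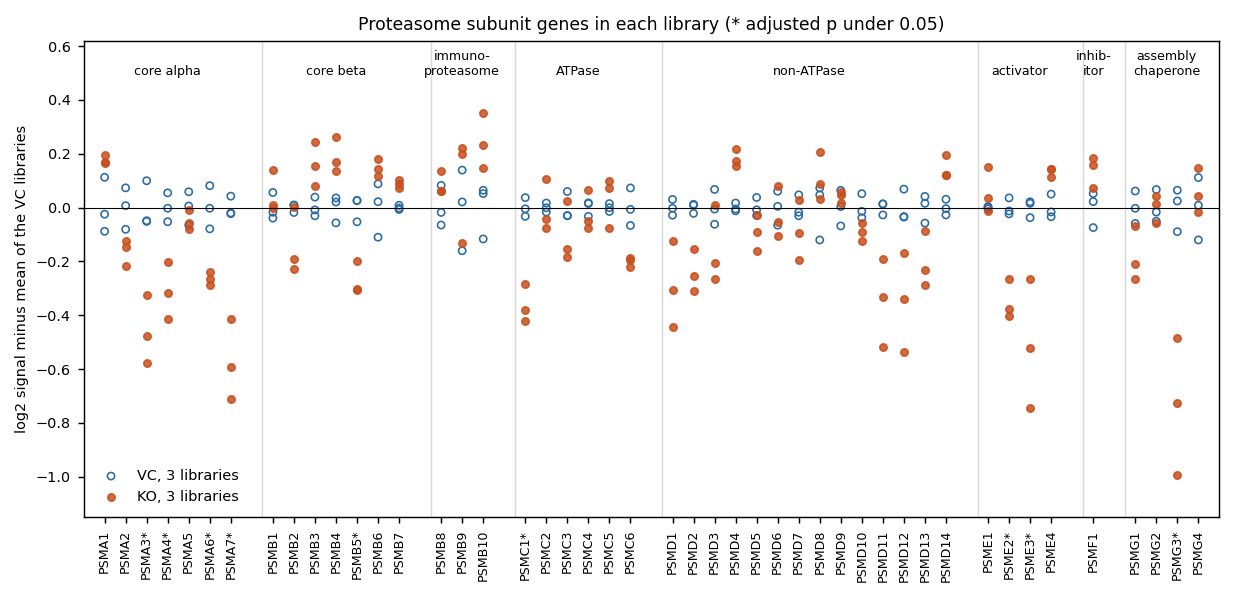
Log2 signal of each tested subunit in each library minus its mean over the 3 VC libraries (vertical axis, log2 units), with subunits along the horizontal axis grouped by class, open blue circles for VC, filled orange circles for KO and an asterisk for an adjusted p under 0.05. All 3 KO libraries lie below all VC libraries in PSMA3, PSMA7 and PSMG3, and above them in PSMB4 and PSMB10, which did not pass the adjusted test.

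The alpha subunits form the outer rings and the gate of the core particle. In KO, 4 of the 7 tested fell and 0 rose (class median -0.26). Of all genes in the upper 50% of mean signal, 22.5% fell and 16.7% rose. Of the 4, PSMA3 and PSMA6 are on chromosome 14 and PSMA7 is on chromosome 20. On these chromosomes 56.4% and 46.5% of such genes fell, in that order, and a part of position was not tested. PSMA7 had log2 signals of 9.16, 9.09 and 9.09 in VC and 8.70, 8.40 and 8.52 in KO. Every KO library lay well below every VC library, and the VC libraries were close together. The means were 9.11 ± 0.037 in VC and 8.54 ± 0.15 in KO (SD, n = 3 each), and PSMA7 fell by 32.8% (log2FC -0.57, SE 0.097, adjusted p = 0.0156). PSMA3 had signals of 7.15, 7.30 and 7.15 in VC and 6.88, 6.63 and 6.73 in KO, again without overlap, and fell by 27.3% (log2FC -0.46, SE 0.097, adjusted p = 0.0243). PSMA4 (log2FC -0.31, SE 0.084, adjusted p = 0.0423) and PSMA6 (log2FC -0.26, SE 0.073, adjusted p = 0.0443) fell less. The other 3 tested alpha subunits did not pass the test, and they did not share a direction. PSMA2 had a log2FC of -0.16 (adjusted p = 0.146), PSMA5 one of -0.048 (adjusted p = 0.617), and PSMA1 was the only alpha subunit above 0, at 0.18 (adjusted p = 0.134).

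The constitutive beta subunits form the inner rings. Of the 7 tested, 1 fell and 0 rose, where 22.5% of the upper 50% fell and 16.7% rose. The class median was 0.086. PSMB5, which carries the chymotrypsin-like activity and is the main target of proteasome inhibitor drugs, had signals of 6.66, 6.58 and 6.66 in VC and 6.43, 6.33 and 6.32 in KO. The groups did not overlap, and PSMB5 fell (log2FC -0.27, SE 0.071, adjusted p = 0.0392). PSMB5 was also the only called subunit whose sign was opposite to the median of its class. The other catalytic subunits lay on the other side of 0. PSMB6, which carries the caspase-like activity, had signals of 7.33, 7.13 and 7.27 in VC and 7.43, 7.36 and 7.39 in KO. PSMB7, which carries the trypsin-like activity, had signals of 7.40, 7.39 and 7.41 in VC and 7.50, 7.47 and 7.49 in KO. In both, every KO value was above every VC value, yet neither PSMB6 (log2FC 0.15, SE 0.080, adjusted p = 0.201) nor PSMB7 (log2FC 0.086, SE 0.060, adjusted p = 0.306) passed the test. PSMB4, a structural beta subunit, had signals of 8.35, 8.26 and 8.34 in VC and 8.58, 8.45 and 8.48 in KO. These too did not overlap, and its difference did not pass (log2FC 0.19, SE 0.072, adjusted p = 0.0955). PSMB3 was similar in size (log2FC 0.16, adjusted p = 0.148), and PSMB1 (log2FC 0.050, adjusted p = 0.636) and PSMB2 (log2FC -0.14, adjusted p = 0.257) overlapped between the groups.

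The immunoproteasome subunits PSMB8, PSMB9 and PSMB10 take the places of PSMB5, PSMB6 and PSMB7 when interferon signalling is active. None of the 3 passed the test, where 39.2% of the upper 50% did, and all had a log2FC above 0 (class median 0.096). PSMB9 turned to -0.17 when libraries were weighted. Those weights did not converge and rested mostly on KO replicate 3 (86.53, against 0.132 for KO replicate 1 and 0.1631 for KO replicate 2), the lowest KO library of PSMB9. PSMB8 had signals of 4.17, 4.02 and 4.07 in VC and 4.22, 4.15 and 4.15 in KO, which overlapped (log2FC 0.087, SE 0.074, adjusted p = 0.393). PSMB9 had signals of 2.47, 2.17 and 2.36 in VC and 2.56, 2.53 and 2.20 in KO and the widest spread of the 3, with KO replicate 3 below VC replicate 1 and VC replicate 3 (log2FC 0.096, SE 0.14, adjusted p = 0.613). PSMB10 had signals of 3.66, 3.48 and 3.65 in VC and 3.95, 3.74 and 3.83 in KO. Every KO value of PSMB10 was above every VC value, but the adjusted p did not pass (log2FC 0.24, SE 0.094, adjusted p = 0.0969). Its interval, 0.0076 to 0.48, is the unadjusted 95% interval of the difference.

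Within each library, the RNA of each pair can be compared as the log2 signal of the immunoproteasome subunit minus that of its constitutive counterpart. Exchange in the assembled particle was not measured. For PSMB8 minus PSMB5 the difference was -2.54 ± 0.052 in VC and -2.18 ± 0.018 in KO (SD, n = 3 each), 0.36 higher in KO (exact permutation test, two-sided, p = 0.1). The groups did not overlap, and 0.1 is the smallest p that 3 against 3 allow, so this test cannot pass 0.05. PSMB5, which fell, and PSMB8, which did not pass the test, both enter this difference. For PSMB10 minus PSMB7 the difference was 0.16 higher in KO, also without overlap (exact permutation p = 0.1). For PSMB9 minus PSMB6 it was -0.051 with overlap (exact permutation p = 0.9). Adjusted over the 3 pairs by the Benjamini-Hochberg method, the exact p-values were 0.15, 0.15 and 0.9.

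**Figure D2:**
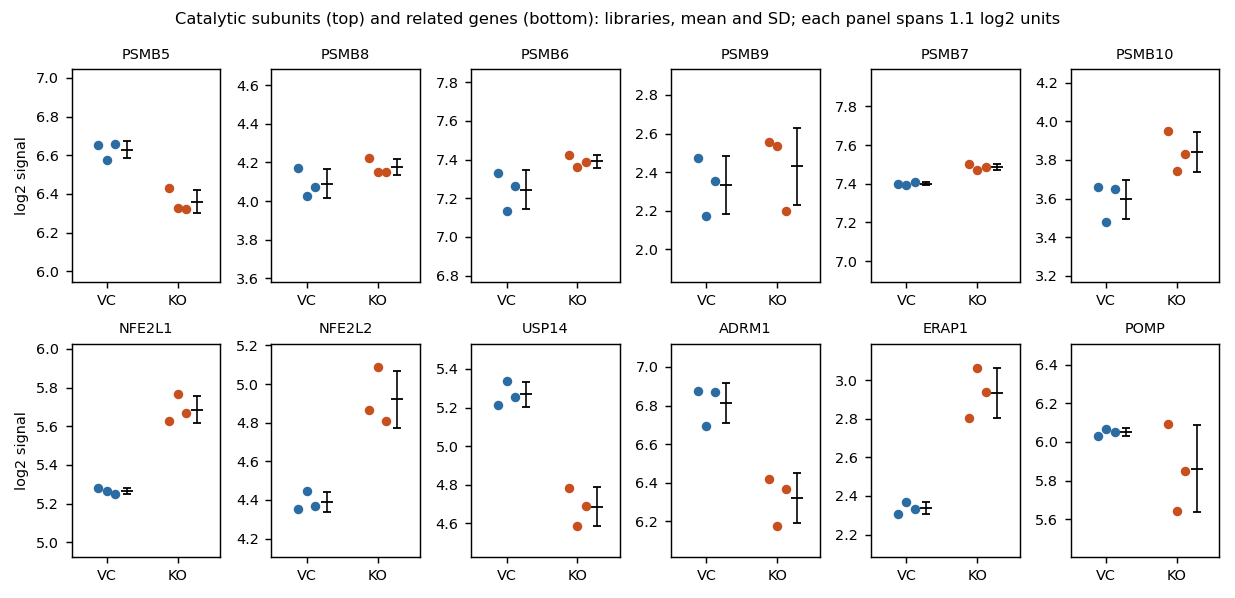
Log2 signal (vertical axis) of catalytic subunits (top) and related genes (bottom) in the VC (blue) and KO (orange) libraries, with a point for each library and, beside the points, the group mean with bars of 1 SD (n = 3). Every panel spans the same number of log2 units. PSMB5 was lower in KO without overlap, PSMB6 and PSMB7 were higher without overlap and did not pass the adjusted test, and NFE2L1, NFE2L2 and ERAP1 were higher.

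The ATPase ring at the base of the regulatory particle unfolds substrates and opens the alpha gate. PSMC1, a member whose tail docks into the alpha ring, had signals of 5.26, 5.31 and 5.24 in VC and 4.99, 4.85 and 4.89 in KO. There was no overlap, and PSMC1 fell by 22.2% (log2FC -0.36, SE 0.072, adjusted p = 0.0211). PSMC6 had signals of 5.01, 5.09 and 4.95 in VC and 4.80, 4.83 and 4.84 in KO, without overlap, and did not pass (log2FC -0.20, SE 0.070, adjusted p = 0.0762). The other 4 ATPases, PSMC2, PSMC3, PSMC4 and PSMC5, overlapped between the groups, with log2FC from -0.10 to 0.032. In all, 1 of 6 ATPase genes fell and 0 rose, where 22.5% of the upper 50% fell and 16.7% rose.

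The non-ATPase genes encode scaffolds, ubiquitin receptors and a deubiquitinase of the regulatory particle, and, in PSMD5, PSMD9 and PSMD10, chaperones of its assembly. None of the 14 passed the adjusted test in limma, where 32.9% of all genes and 39.2% of the upper 50% passed. An unadjusted p under 0.05 was found in 5, 4 lower and 1 higher. Of all genes 47.9% had one, and of the upper 50% 56.8% (34.2% lower and 22.5% higher). The number that passed was 6 when the fit was limited to genes in the upper 50% of mean signal, where 59.1% of genes passed. PSMD11, a scaffold of the lid, had signals of 4.75, 4.76 and 4.71 in VC and 4.55, 4.23 and 4.41 in KO. PSMD2, a large scaffold of the base, had signals of 8.17, 8.17 and 8.14 in VC and 8.01, 7.85 and 7.90 in KO. Neither overlapped between groups. PSMD11 (log2FC -0.35, SE 0.10, adjusted p = 0.0513) and PSMD2 (log2FC -0.24, SE 0.072, adjusted p = 0.0552) missed the threshold by little. The lid scaffold PSMD12 (log2FC -0.35, adjusted p = 0.0653) and the base scaffold PSMD1 (log2FC -0.29, adjusted p = 0.0754) were lower by similar amounts. On the other side, PSMD4, a ubiquitin receptor, had a log2FC of 0.18 (adjusted p = 0.0751), and PSMD14, the deubiquitinase of the lid, one of 0.15 (adjusted p = 0.135). Both had every KO value above every VC value. The assembly chaperones PSMD5, PSMD9 and PSMD10 had log2FC between -0.093 and 0.041.

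**Figure D3:**
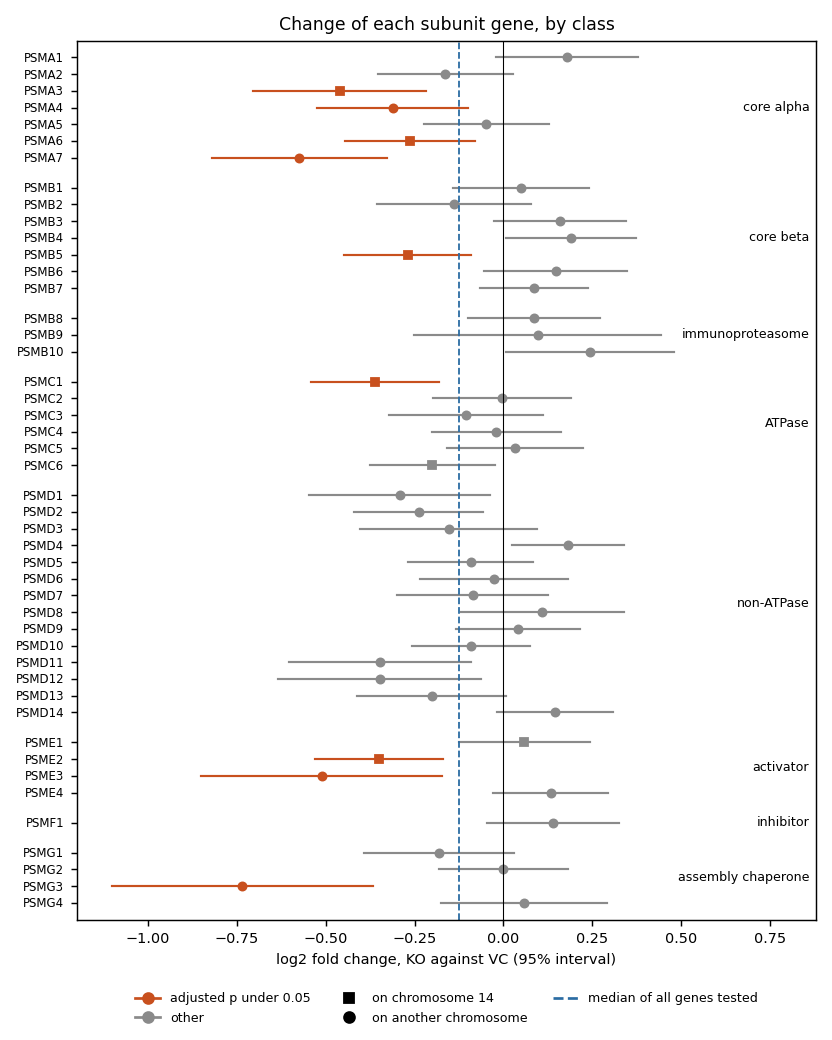
Log2 fold change of KO over VC (horizontal axis) for each tested subunit, grouped by class, with bars for the 95% interval from limma (not adjusted), orange for an adjusted p under 0.05, grey for the rest, squares for chromosome 14 and a dashed line at the median of all genes tested. The 9 orange points are all below 0 and lie in 5 classes, while no non-ATPase or immunoproteasome subunit is orange.

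The activators bind the ends of the core particle in place of the regulatory particle, and they were split. Of the 4, 2 fell and 0 rose, where 22.5% of the upper 50% fell and 16.7% rose. PSME1 and PSME2, the interferon-inducible partners that assemble into a common ring, lie near each other on chromosome 14. PSME1 had signals of 5.28, 5.28 and 5.27 in VC and 5.26, 5.43 and 5.31 in KO. These overlapped, with KO replicate 1 below all VC libraries and the other 2 KO libraries above them (log2FC 0.059, SE 0.073, adjusted p = 0.560). PSME2 had signals of 6.15, 6.10 and 6.09 in VC and 5.84, 5.71 and 5.73 in KO. Here every KO value was below every VC value, and PSME2 fell by 21.5% (log2FC -0.35, SE 0.072, adjusted p = 0.0229). The difference between the partners was not tested. PSME3, which forms the nuclear activator, had signals of 6.05, 6.10 and 6.11 in VC and 5.82, 5.34 and 5.56 in KO. The KO libraries were far apart, with replicate 2 lowest, and all were below VC (log2FC -0.51, SE 0.13, adjusted p = 0.0394). PSME4, the large single-chain activator, had signals of 4.43, 4.52 and 4.45 in VC and 4.61, 4.61 and 4.58 in KO, without overlap, and did not pass (log2FC 0.13, SE 0.064, adjusted p = 0.160). PSMF1, an inhibitor of the core particle in the test tube, had signals of 4.24, 4.14 and 4.27 in VC and 4.38, 4.29 and 4.41 in KO. Its groups did not overlap either, and the difference did not pass (log2FC 0.14, SE 0.074, adjusted p = 0.194).

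The assembly chaperones PSMG1 to PSMG4 guide the building of the alpha ring. Of these 4, 1 fell and 0 rose, where 22.5% of the upper 50% fell and 16.7% rose. PSMG3 had the largest fall of all 46 tested subunits, with signals of 5.20, 5.05 and 5.16 in VC and 4.65, 4.14 and 4.41 in KO. The lowest VC value was well above the highest KO value, although the KO libraries spread more (SD 0.25) than the VC libraries (SD 0.080). PSMG3 fell by 39.9% (log2FC -0.73, SE 0.15, adjusted p = 0.0213). Its assembly partner PSMG4 had a log2FC of 0.058 (adjusted p = 0.651), with overlap. The other chaperone pair was PSMG1, with signals of 5.43, 5.50 and 5.37 in VC and 5.37, 5.17 and 5.22 in KO and a difference that did not pass (log2FC -0.18, SE 0.084, adjusted p = 0.149), and PSMG2 (log2FC under 0.01 in size). Antisense transcripts listed for 4 subunit loci had values of their own. PSMG3-AS1 (log2FC -0.71, adjusted p = 0.0422) and PSMA3-AS1 (log2FC -0.56, adjusted p = 0.0265) fell, and PSMB8-AS1 (log2FC -0.29, adjusted p = 0.0988) and PSMD6-AS2 (log2FC -2.16, adjusted p = 0.0741) did not pass. Each of the 4 had every KO value below every VC value, as did 36.7% of all genes with 6 values. PSMD6-AS2 was low and scattered in KO, at -2.38, -5.21 and -3.50 (SD 1.42). The labels name a stranded kit, and whether counting used the strand is not given in the sources used here, so reads of a gene and its antisense partner may not have been told apart. None of the 43 rows for subunit pseudogenes had a value, so how reads shared with those copies were assigned is unknown.

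Several subunits that fell lie on the same chromosome. By symbol in a RefSeq table, 7 tested subunits are on chromosome 14 (PSMA3, PSMA6, PSMB5, PSMC1, PSMC6, PSME1 and PSME2), and 5 of them fell. PSMC6 was lower without overlap, and PSME1 overlapped. Their median log2FC was -0.27. Among the 335 genes of chromosome 14 in the upper 50% of mean signal, 56.4% fell and 6.27% rose, with a median of -0.35. PSMA7 is on chromosome 20, where 46.5% of 286 such genes fell and 12.9% rose, with a median of -0.25, and the other subunit there, PSMF1, was above 0. Of the 37 tested subunits on other chromosomes, 3 fell (PSMA4, PSME3 and PSMG3), and their median was -0.020.

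The genes next to each subunit were compared in the same way, with up to 10 tested genes of the upper 50% on each side and no gene whose symbol starts with PSM. Around PSMA7 the neighbours' median log2FC was -0.56, and 16 of 20 fell. Around PSMC1 it was -0.50, with 16 of 20 lower, and around PSMA3 -0.42, with 14 of 20 lower. Around PSMG3, on chromosome 7, it was -0.61, and 13 of 19 neighbours fell. In these 4 cases most neighbours fell as the subunit did. The other 3 subunits of chromosome 14 that fell had 8 to 10 of 20 neighbours lower, with medians of -0.29 around PSMA6, -0.18 around PSMB5 and -0.20 around PSME2. The neighbours of PSME3 had a median of 0.022, with 4 lower and 3 higher. PSMA4 had neighbours at -0.14, with 4 lower. On the other side, PSMB4 and PSMD4, whose neighbours on chromosome 1 are partly the same, each had a neighbours' median of 0.18. PSMF1 had one of 0.21 with 7 higher and 0 lower, while the neighbours of PSMB10 were at -0.26. The other subunits with every KO value above every VC value also had neighbours' medians below 0. These were -0.13 for PSMA1, -0.17 for PSMB3, -0.14 for PSMB6, -0.23 for PSMB7, -0.19 for PSMD14 and -0.11 for PSME4. Across the 46 subunits the log2FC and the neighbours' median had a Pearson r of 0.588 and a Spearman rho of 0.423, and without chromosomes 14 and 20 these were 0.429 and 0.217 over 37 subunits. The points are genes, some share neighbours, and all come from the same 6 libraries, so these are descriptions. Whether the position of a gene had a part in its change was not tested.

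**Figure D4:**
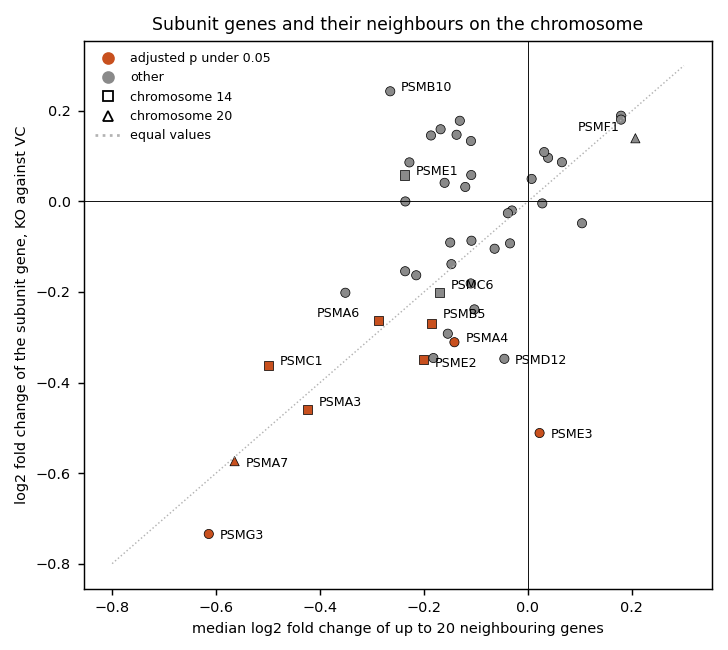
Log2 fold change of each tested subunit (vertical axis) against the median log2 fold change of up to 20 neighbouring genes (horizontal axis), with orange for an adjusted p under 0.05, squares for chromosome 14, triangles for chromosome 20 and a dotted line where both are equal. PSMA7, PSMC1, PSMA3 and PSMG3 lie at the lower left with low neighbours, and PSME3 lies low with neighbours near 0.

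Of 4 listed regulators of subunit genes, NFE2L1 and NFE2L2 rose and 0 fell, where 16.7% of the upper 50% rose and 22.5% fell. A link to the subunits that fell was not tested. NFE2L1 had signals of 5.28, 5.26 and 5.25 in VC and 5.62, 5.76 and 5.67 in KO and rose without overlap (log2FC 0.42, SE 0.070, adjusted p = 0.0150). NFE2L2 had signals of 4.35, 4.45 and 4.37 in VC and 4.87, 5.09 and 4.81 in KO and rose as well (log2FC 0.53, SE 0.098, adjusted p = 0.0182). DDI2 (log2FC -0.068, adjusted p = 0.538) and NGLY1 (log2FC -0.055, adjusted p = 0.779), the protease and the glycanase that process the NFE2L1 protein, did not pass the test. Each rise failed the test in 3 of 6 fits that left out 1 library, NFE2L1 without VC replicate 1, VC replicate 3 or KO replicate 3 and NFE2L2 without any 1 of the VC libraries. The largest adjusted p in these fits was 0.0648 for NFE2L1 and 0.0691 for NFE2L2 (limma), and both kept their direction. RNA levels do not show how much of either factor was active.

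Both factors bind the antioxidant response element, whose core was searched as TGACNNNGC on both strands of promoters, taken as 250 bases before to 50 after each RefSeq gene start. Of the 48 subunit genes, 42 had a promoter in the table. The core was in 15 of these 42 genes (35.7%), against 16.1% of all 27305 genes with a promoter, and in 29.4% of 51 subunit promoters, against 13.3% of 35116. Of the 7 subunit genes that fell and had a promoter, 2 held it, PSMA4 and PSME2. The CCAAT box was in 47.6% of the subunit genes and 39.7% of all genes. The promoters of PSME1 and PSME2 are shown because both genes of this activator hold the core while PSME2 fell and PSME1 did not pass the test, and that of PSMA4 because it is the other subunit that fell with a core. Capitals mark the core, which starts 86 bases before the gene start in PSME1, 175 before in PSME2 and 126 before in PSMA4, in 1 of its 3 listed starts, all on the strand of the gene. The windows are from GRCh38.p14, at chr14:24135944-24136243 on the plus strand for PSME1, chr14:24146561-24146860 on the minus strand for PSME2 and chr15:78540536-78540835 on the plus strand for PSMA4.
PSME1: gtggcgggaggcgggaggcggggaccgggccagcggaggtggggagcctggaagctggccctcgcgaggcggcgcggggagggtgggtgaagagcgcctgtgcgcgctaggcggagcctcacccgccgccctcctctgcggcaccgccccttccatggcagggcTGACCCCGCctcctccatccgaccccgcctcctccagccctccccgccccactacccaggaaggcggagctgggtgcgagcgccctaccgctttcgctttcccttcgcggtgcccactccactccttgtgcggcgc
PSME2: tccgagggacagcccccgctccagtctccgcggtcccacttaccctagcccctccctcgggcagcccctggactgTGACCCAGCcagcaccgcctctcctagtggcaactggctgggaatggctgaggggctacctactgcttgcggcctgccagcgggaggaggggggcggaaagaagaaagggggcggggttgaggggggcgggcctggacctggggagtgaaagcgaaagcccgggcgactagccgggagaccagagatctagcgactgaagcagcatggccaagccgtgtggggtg
PSMA4: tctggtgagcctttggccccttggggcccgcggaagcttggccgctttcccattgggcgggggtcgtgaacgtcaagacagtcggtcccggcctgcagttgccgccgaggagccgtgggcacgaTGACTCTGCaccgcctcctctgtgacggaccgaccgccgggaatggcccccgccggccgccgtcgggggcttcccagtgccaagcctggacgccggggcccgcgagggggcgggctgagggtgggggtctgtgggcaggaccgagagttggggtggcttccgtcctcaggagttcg
A match describes these letters only. Of the 15 subunit genes with the core, PSME2 and PSMA4 fell. The others, PSMB3, PSMB9, PSMC4, PSMC5, PSMD1, PSMD3, PSMD5, PSMD9, PSMD12, PSME1, PSME4, PSMG1 and PSMG2, did not pass the test.

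Related genes of the pathway came from a list of 34, all tested, of which 5 rose and 3 fell, where 13.1% and 19.8% of all genes did. Of the 34, 33 lay in the upper 50% of mean signal, where 16.7% rose and 22.5% fell. ADRM1, a ubiquitin receptor of the regulatory particle without a PSM symbol, had signals of 6.88, 6.69 and 6.87 in VC and 6.42, 6.17 and 6.37 in KO and fell (log2FC -0.49, SE 0.10, adjusted p = 0.0238). Like PSMA7 it is on chromosome 20. SEM1, the small lid subunit, did not pass (log2FC -0.096, adjusted p = 0.397). USP14, a deubiquitinase that binds the regulatory particle, had signals of 5.21, 5.34 and 5.25 in VC and 4.79, 4.59 and 4.69 in KO and fell without overlap (log2FC -0.58, SE 0.084, adjusted p = 0.0122). TXNL1, another protein bound there, rose (log2FC 0.27, adjusted p = 0.0495).

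POMP, the maturation factor of the core particle, had signals of 6.03, 6.07 and 6.05 in VC and 6.09, 5.64 and 5.85 in KO, and KO replicate 2 stood below the rest (log2FC -0.19, adjusted p = 0.291). UFD1, a cofactor of the unfoldase VCP, rose (log2FC 0.42, adjusted p = 0.0207). VCP itself (log2FC -0.12, adjusted p = 0.165) did not pass. The shuttle UBQLN4 fell (log2FC -0.28, adjusted p = 0.0395). Among 7 antigen processing genes 1 rose and 0 fell, where 13.1% of all genes rose and 19.8% fell (16.7% and 22.5% of the upper 50%), so this count was near the background. The gene that rose was the peptide-trimming enzyme ERAP1, with signals of 2.31, 2.37 and 2.33 in VC and 2.80, 3.06 and 2.94 in KO (log2FC 0.60, SE 0.089, adjusted p = 0.0129). The peptide transporter gene TAP1 (log2FC 0.013, adjusted p = 0.909) and the interferon-responsive factor IRF1 (log2FC 0.28, adjusted p = 0.0854) did not pass. Without VC replicate 3 limma called 0 of the 34 related genes (7 at an unadjusted p under 0.05), without VC replicate 1 it called 1, without KO replicate 3 it called 3, without VC replicate 2 it called 4, without KO replicate 2 it called 6, and without KO replicate 1 it called 14. The shares of all genes that passed in these fits, in the same order, were 6.57%, 7.54%, 10.9%, 13.1%, 23.6% and 47.0%.

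The KO libraries were ordered alike in many subunits. Among the 9 that fell, KO replicate 2 had the lowest KO value in 8 and KO replicate 3 in 1, and KO replicate 1 had the highest in all 9. Over the 46 tested subunits KO replicate 2 was lowest in 31 and KO replicate 1 highest in 37. The first principal component of all genes held 63.5% of the variance. It placed KO replicate 1 nearest VC and replicate 2 farthest, as in most of the 9 that fell. The KO libraries were at 20.8 for replicate 1, 48.9 for replicate 3 and 73.8 for replicate 2, and the VC libraries between -48.4 and -46.7. In the constitutive beta class KO replicate 1 was instead farthest from VC. The class's median deviation from each gene's mean was 0.108 in KO replicate 1, 0.0287 in replicate 2 and 0.00219 in replicate 3. In the VC libraries it ran from -0.0517 to -0.0407. How many of all genes had KO replicate 1 highest or replicate 2 lowest was not computed. The median SD over subunits was 0.0506 in VC and 0.0800 in KO, and the KO SD was the larger in 32 of 46. Over the 9653 genes of the upper 50% these were 0.0598 and 0.121, with the KO SD larger in 7359, so the wider spread in KO was not limited to the subunits. Dropping KO replicate 1 raised the count of subunits that fell to 15, as given above.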

How the data were processed

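RNA of 3 VC and 3 KO samples of 143B cells was sequenced, and groups and replicate numbers came from the labels. The authors deposited log2 signals for 54308 genes by symbol, with an empty cell where a library had no value (29611 genes had none in any library). Per the labels, processing named CASAVA, STAR, Partek and GRCh38.p13, without versions, and the study's methods name CLC and Partek software. The linear unit, depth and counting of strand are not given in the sources used here. The sorted values were nearly alike in all libraries, so the table appears quantile-normalized.

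The deposited log2 signals were used as they stand in limma 3.58.1 (R 4.3.3), by a linear model with moderated variances and no trend. A test needed 2 or more values in VC and in KO, which 19306 genes had. Two-sided p-values received the Benjamini-Hochberg adjustment over all of these genes, with a threshold of 0.05. The script was tested on simulated data. Exact permutation tests used SciPy 1.17.1. Values per library are given for all immunoproteasome, activator and inhibitor subunits, the constitutive catalytic subunits, the 2 members with the smallest adjusted p of each other class, and any called member opposite in sign to its class. Related genes named with values were ADRM1, SEM1, POMP, NFE2L1, NFE2L2, TAP1 and the 5 with the largest called change, and other related genes were named after their values were seen. Chromosomes, gene order and promoters came by symbol from RefSeq (GRCh38.p14). It was used for gene order and promoter windows, and no gene of the deposited table was matched by position. The members and lists were chosen with earlier results of these data known. Of the planned related genes, 2 are not reported here and were left out of the list's counts. Protein sequences were not used here.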

Additional observations from a re-analysis of the deposited data

How the results depend on the processing

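No subunit that fell changed direction under any alternative run. The number of subunits that passed was 18 (3 higher, 15 lower) when only the upper 50% by mean signal was fitted, 18 (3 and 15) with trend and robust moderation, 14 (4 and 10) without moderation, 22 (6 and 16) with 1 added to the linear signal, 10 (5 and 5) with median-centred libraries and 32 (9 and 23) with library weights, whose estimation did not converge. With a value in all 6 libraries required it was 11, with 1 value per group 9 and after a further quantile normalization 8, all lower. Leaving out each library gave 0 to 15, and 0 to 15 lower. Related genes passed in 14, 13, 11, 14, 9 and 24 cases in the same first 6 settings and in 0 to 14 cases with a library left out, of which 7, 6, 7, 7, 7 and 9 rose (0 to 5) and 7, 7, 4, 7, 2 and 15 fell (0 to 9), with 2 lower after quantile normalization and 4 higher with 1 value per group. Over all genes tested the count was 6354 of 19306, and 1223 to 8669 with a library left out. It was 4432 of 19306 without moderation, 13936 with weights and 6393 after quantile normalization. With 6 values required it was 6785 of 17698, and with 1 value per group 6262 of 20642. Without moderation the share of subunits that passed was above that of all genes. With weights, quantile normalization or either rule on values it was below. Shares of all genes in the other fits are given above. The cause of these differences was not tested.

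Replicate numbers did not pair the libraries. Deviations of same-numbered libraries correlated at 0.0226, 0.00509 and -0.00736, and not every library correlated best with its own number. With a replicate block, limma called 0 subunits (11 at an unadjusted p under 0.05), 0 related genes (10 unadjusted; 0 higher, 0 lower) and 1533 genes.

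With median-centred libraries the class medians were -0.18 (alpha), 0.17 (beta), 0.18 (immunoproteasome), 0.026 (ATPase), -0.0040 (non-ATPase), -0.057 (activator) and -0.0028 (assembly chaperone). With a library left out, the immunoproteasome median ran from 0.054 to 0.21. Signs that turned were all of genes that had not passed. With median-centred libraries these were PSMA5 (0.040), PSMC2 (0.083), PSMC4 (0.068), PSMD6 (0.062), PSMD7 (0.00095), DDI2 (0.020), NGLY1 (0.033), RPS27A (0.014), UBA1 (0.0079), UBA6 (0.051), UBQLN2 (0.010). After quantile normalization they were PSMC2 (0.022), PSMC4 (0.0022), UBA6 (0.0085). With weights they were PSMB9 (-0.17), PSMG4 (-0.047), NGLY1 (0.096), UBB (-0.016), TAP1 (-0.026), TAPBP (-0.099). With a library left out, the ranges were -0.059 to 0.032 for PSMC2, -0.063 to 0.0086 for PSMC4, -0.0011 to 0.085 for PSMC5, -0.079 to 0.014 for PSMD6, -0.025 to 0.034 for PSMG2, -0.0017 to 0.11 for PSMG4, -0.13 to 0.085 for NGLY1, -0.046 to 0.27 for NLRC5, -0.019 to 0.072 for TAP1, -0.071 to 0.062 for TAPBP.

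Without any 1 library the 9 subunits kept their direction, and their largest adjusted p ran from 0.0614 (PSMA7) to 0.129 (PSMB5). Read depth is unknown, so its limit on small differences could not be computed, and RNA signals do not measure protein or proteasome activity.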
